A study of Mus musculus with 6 samples.

Results

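The homeostatic astrocyte genes comprised 10 of the 37315 genes listed in every library. They were taken by name, not by a threshold on measured values, for the functions that astrocytes carry in the resting brain. Slc1a2, Slc1a3 and Glul take up glutamate and turn it into glutamine, Aqp4 and Kcnj10 pass water and potassium, Gja1 and Gjb6 couple astrocytes into a network, and Aldh1l1, Aldoc and S100b belong to folate metabolism, glycolysis and calcium binding. All 10 genes had reads in all 6 libraries and passed the filter on low counts in every pair.

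RNA was sequenced from the hippocampus of C57BL/6J mice aged 4 weeks. In the Nestin-Cre pair, a library from mice with both Prrc2a alleles floxed (Prrc2a f/f; this control is called f/f-Nes) was set against Prrc2a f/f mice carrying Nestin-Cre, which recombines in neural progenitors and therefore also in the neurons, astrocytes and oligodendrocytes that they form. In the Olig2-Cre pair, a second Prrc2a f/f library (f/f-Olig) was set against Prrc2a f/f; Olig2-Cre, in which Cre is controlled by the endogenous Olig2 promoter and 1 Olig2 allele is lost with it. The f/f controls carry the floxed allele too. In the Fto pair, wild type (WT) mice were compared with Fto Tg mice, made by lentiviral transgenesis with the mouse Fto coding sequence behind a ubiquitin C promoter, so that expression is not limited to a cell type. Prrc2a binds the RNA mark N6-methyladenosine (m6A), and Fto removes it. Each group was 1 library, pooling of animals is not mentioned in the labels, and a difference within a pair had no replicate check.

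Astrocytes clear the glutamate that synapses release and return it to neurons as glutamine. Their end feet on blood vessels hold dense arrays of water channels, and their high potassium conductance together with gap junctions spreads the potassium that active neurons release. Loss of these functions is a known feature of astrocytes in injured or epileptic tissue, where Gfap, a filament protein, usually rises.

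The libraries held 18616540 to 35482589 counts, given below as CPM (the count over the library total, scaled to 1000000). Counting error (Wilson 95% interval) was between 0.545% of the value for Slc1a2 and 8.29% for Aldh1l1, both in the Nestin-Cre library. That library stood apart from the other 5 before any single gene was considered. Mitochondrial genes held 26.2% of its counts against 7.97% to 8.86% elsewhere, and the median log2 ratio over all genes tested in its pair was -0.72, against -0.00 and -0.01 in the Olig2-Cre and Fto pairs. The members' values in it are therefore given by library total and again after TMM scaling, which moved that median to -0.03. By library total, Prrc2a had 184 CPM in the Nestin-Cre library against 351 to 434 CPM in the 3 controls. It had 346 CPM with Olig2-Cre and 334 CPM in Fto Tg, so the Olig2-Cre value does not stand apart from a library without the deletion. The Prrc2a transcript has 60.6% GC. Groups of 892 genes with a median GC content of 58.9% and 61.4% had median log2 ratios of -1.54 and -1.90 in the Nestin-Cre pair. The part of GC content in the low Prrc2a value was not tested. Fto had 354 CPM in Fto Tg and 136 to 164 CPM in the other libraries. RNA came from whole hippocampus, in which fewer astrocytes and less RNA per astrocyte cannot be told apart.

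Levels were first compared between genes in the 3 control libraries (f/f-Nes, f/f-Olig and WT), as CPM per kilobase of the longest protein-coding transcript (RPKM). Glul, the glutamine synthetase, was the most abundant at 484 ± 18.3 RPKM (SD, n = 3). Slc1a2 (the glutamate transporter GLT-1) followed at 281 ± 6.93 RPKM, Aldoc (aldolase C) at 219 ± 7.29 RPKM and Slc1a3 (the glutamate transporter GLAST) at 136 ± 8.19 RPKM. The upper places of this order thus belonged to glutamate handling and glycolysis. Gja1 (connexin 43) had 85.9 ± 6.23 RPKM and S100b 59.9 ± 5.04 RPKM. Aqp4 (39.1 ± 3.66 RPKM) and Kcnj10 (38.3 ± 0.292 RPKM) had overlapping ranges, the only neighbours in the order for which this held. Gjb6 (connexin 30) had 32.0 ± 5.77 RPKM, and Aldh1l1, a cytosolic folate enzyme used as an astrocyte marker, was lowest at 11.1 ± 0.196 RPKM. With the union of all annotated exons as the length, the same 4 genes remained on top and Aldh1l1 at the bottom, whereas Gja1 (10257 against 3182 bases) moved from the fifth to the eighth place.

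By library total, the 10 genes together took a similar share of every library. Their summed values were 6686, 6682 and 6618 CPM in the controls, 6881 CPM with Nestin-Cre, 6155 CPM with Olig2-Cre and 6125 CPM in Fto Tg. With TMM this did not hold for Nestin-Cre, where the sum was 10243 against 6076 to 6191 in the controls. It was 5641 with Olig2-Cre and 5714 in Fto Tg. Slc1a2 alone supplied 47.8% to 49.6% of that sum in the controls. Its share was 53.8% with Nestin-Cre, and only 40.9% and 39.7% with Olig2-Cre and in Fto Tg.

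**Figure D1:**
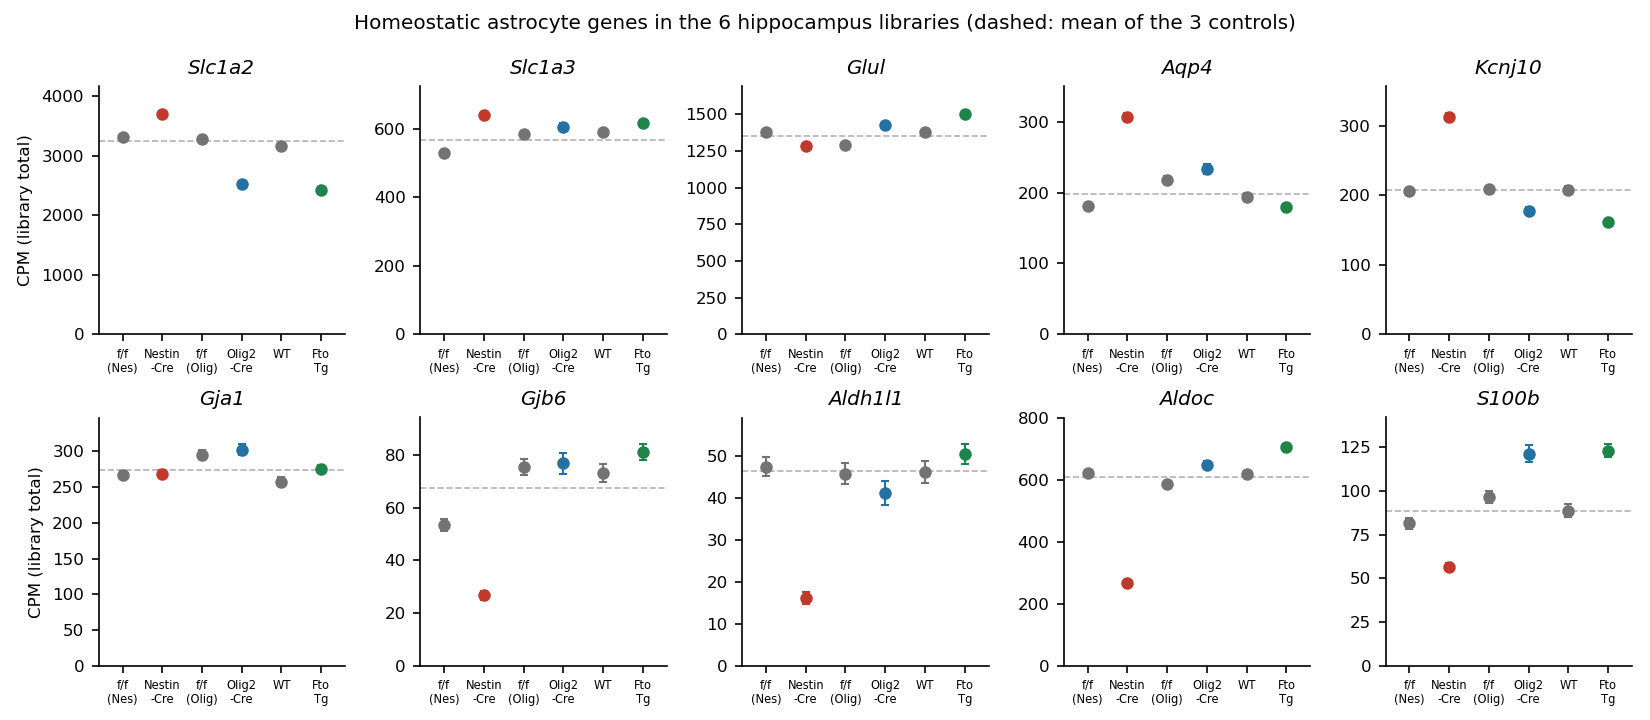
CPM of the 10 genes in each of the 6 libraries, 1 panel per gene with the axis from 0; points are single libraries (grey for the controls f/f-Nes, f/f-Olig and WT), bars the Wilson 95% interval for counting error, and the dashed line the mean of the 3 controls. In the Nestin-Cre library Gjb6, Aldh1l1, Aldoc and S100b lie below all controls and Aqp4 and Kcnj10 above them by at least 1.2-fold. Slc1a2 is low with Olig2-Cre and in Fto Tg.

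By library total, the members Aqp4 and Kcnj10 stood higher in the Nestin-Cre library than in its control. Aldh1l1, Aldoc, Gjb6 and S100b stood lower, and the log2 ratios of Slc1a2, Slc1a3 and Glul lay between -0.10 and 0.27. Within the pair, reads were compared by the MARS method, in which a gene is called at a false discovery rate below 0.001 and a fold change of at least 1.2; the calls compare 2 libraries and not 2 genotypes. Of the 10 genes, 3 were called higher (Aqp4, Kcnj10 and Slc1a3) and 4 lower (Aldh1l1, Aldoc, Gjb6 and S100b). Over all 18170 genes tested, 11.5% were called higher and 53.4% lower. The median log2 ratio of the 10 genes was -0.05, and 7 of them lay above the median of all genes. With TMM scaling, 6 were called higher and 3 lower, where 28.4% and 29.8% of all genes were.

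Aldh1l1 (ENSMUSG00000030088, chromosome 6, 90486427 to 90600203, plus strand) had the lowest log2 ratio of the 10 genes in this pair. Its values were 47.4, 45.8 and 46.2 CPM in the controls, 41.1 CPM with Olig2-Cre, 50.5 CPM in Fto Tg and 16.1 CPM (95% interval 14.8 to 17.5) with Nestin-Cre. The log2 ratio of -1.56 ± 0.07 (SE of counting) was -0.87 with TMM, and the gene was called lower under both. The study quantified Aldh1l1 by RT-qPCR with a pair of primers whose product lies in exons 2 and 3 of transcript ENSMUST00000130418.7, inside the coding sequence (chr6:90557261-90559360 on the plus strand, GRCm38, with the intron between the exons included in the span). The product is printed here because Aldh1l1 had the highest GC content among the members and the product exceeds it, with 61.4% GC against 54.4% in the whole transcript. Capitals mark the 21 bases of the forward primer and the 20 bases to which the reverse primer is complementary.
Aldh1l1 amplicon: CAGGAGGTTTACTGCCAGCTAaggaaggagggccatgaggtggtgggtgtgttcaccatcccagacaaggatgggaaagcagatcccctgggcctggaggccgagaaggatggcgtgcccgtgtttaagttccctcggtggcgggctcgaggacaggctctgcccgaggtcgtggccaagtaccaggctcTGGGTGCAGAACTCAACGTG

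Aldoc (ENSMUSG00000017390, chromosome 11, 78322968 to 78327781, plus strand), the brain form of the glycolytic enzyme aldolase, had 623, 586 and 619.6 CPM in the controls. It was 266 CPM with Nestin-Cre, 651 CPM with Olig2-Cre and 708 CPM in Fto Tg, which placed the Nestin-Cre library far below and the other altered libraries above the controls. The log2 ratio in the Nestin-Cre pair was -1.23, or -0.54 with TMM, and the gene was called lower under both. Both glial connexins were measured, and they parted. Gjb6 (ENSMUSG00000040055, chromosome 14, 57123303 to 57133611, minus strand) had 53.3, 75.4 and 73.1 CPM in the controls, 26.7 CPM with Nestin-Cre, 76.8 CPM with Olig2-Cre and 81.1 CPM in Fto Tg. f/f-Nes was thus already below the other controls, by a log2 ratio of -0.50 against f/f-Olig. The log2 ratio of Gjb6 in the Nestin-Cre pair was -0.998 against its own control, -1.50 and -1.45 against f/f-Olig and WT, and -0.31 with TMM. Gja1 (ENSMUSG00000050953, chromosome 10, 56377330 to 56402513, plus strand), the other main astrocyte connexin, had 267, 296 and 258 CPM in the controls and 268, 302 and 276 CPM with Nestin-Cre, with Olig2-Cre and in Fto Tg. By library total its log2 ratio with Nestin-Cre was 0.01, within the spread of the controls, and with TMM it was 0.69 and called. The ratio of Gjb6 to Gja1 counts is not changed by a scaling that applies 1 factor to a whole library. It was 0.200, 0.255 and 0.284 in the controls, 0.0995 with Nestin-Cre, 0.254 with Olig2-Cre and 0.294 in Fto Tg. Adjustment for GC content and length differs between genes, and gave log2 ratios of -0.25 for Gjb6 and 0.37 for Gja1 in the Nestin-Cre pair.

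Aqp4 (ENSMUSG00000024411, chromosome 18, 15389496 to 15410982, minus strand, GRCm38) encodes the main water channel of astrocyte end feet. It had 181, 218 and 194 CPM in f/f-Nes, f/f-Olig and WT, 307 CPM with Nestin-Cre, 233 CPM with Olig2-Cre and 179.5 CPM in Fto Tg. The Nestin-Cre library was the highest of the 6, and its log2 ratio of 0.76 ± 0.02 (SE of counting) became 1.45 with TMM. The f/f controls themselves differed in Aqp4, by a log2 ratio of -0.26 (f/f-Nes over f/f-Olig) that was called. Kcnj10 (ENSMUSG00000044708, chromosome 1, 172341210 to 172374085, plus strand), the potassium channel Kir4.1, was at 206, 209 and 207 CPM in the controls, the smallest spread of all members on the log2 scale (SD 0.011). It had 313 CPM with Nestin-Cre, 177 CPM with Olig2-Cre and 162 CPM in Fto Tg, so that no altered library fell within the range of the controls. Its log2 ratio in the Nestin-Cre pair was 0.61, or 1.29 with TMM.

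S100b (ENSMUSG00000033208, chromosome 10, 76253853 to 76261159, plus strand) encodes a small calcium-binding protein that astrocytes secrete. It had 81.4, 96.4 and 88.7 CPM in the controls, 56.4 CPM with Nestin-Cre, 121 CPM with Olig2-Cre and 123 CPM in Fto Tg, below all controls in the first and above them in the others. Its log2 ratios were -0.53, 0.33 and 0.47 in the Nestin-Cre, Olig2-Cre and Fto pairs, and called in each. The direction in the Nestin-Cre pair rested on the library total, since the value was 0.16 with TMM and 0.28 after adjustment for GC content and length.

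By library total, the log2 ratios of the glutamate handling genes with Nestin-Cre were 0.16 for Slc1a2, 0.27 for Slc1a3 and -0.10 for Glul. Slc1a2 (ENSMUSG00000005089, chromosome 2, 102658659 to 102790784, plus strand), which clears most of the glutamate in the forebrain, had 3318, 3281 and 3164 CPM in the controls and 3704 CPM with Nestin-Cre. It had 2519 CPM with Olig2-Cre and 2431 CPM in Fto Tg, both below every control. Slc1a3 (ENSMUSG00000005360, chromosome 15, 8634124 to 8710764, minus strand) had 529, 585 and 590.4 CPM in the controls, 638 CPM with Nestin-Cre, 605 CPM with Olig2-Cre and 616 CPM in Fto Tg, so that its altered libraries lay narrowly above all controls. Its call in the Nestin-Cre pair (log2 ratio 0.27) was lost with f/f-Olig (0.13) or WT (0.11) as control. Glul (ENSMUSG00000026473, chromosome 1, 153899944 to 153909723, plus strand) had 1381, 1291 and 1378 CPM in the controls, 1284 CPM with Nestin-Cre, 1428 CPM with Olig2-Cre and 1498 CPM in Fto Tg. Its log2 ratio with Nestin-Cre was -0.10 by library total and not called, and with TMM it was 0.58 and called higher. TMM also gave 0.84 for Slc1a2 and 0.96 for Slc1a3 in this pair, both called. In GENCODE M21, exons of Slc1a2, Glul and Aldh1l1 overlap those of Gm13872, Teddm2 and Gm15756 on the opposite strand, and reads counted without strand cannot be assigned within such stretches.

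The ratio of Aqp4 to Aldh1l1 counts sets the members with the highest and the lowest log2 ratio in the Nestin-Cre pair against each other. Its extreme value there is therefore no separate result. The count ratio was 3.83, 4.75 and 4.19 in the controls, 5.67 with Olig2-Cre, 3.56 in Fto Tg and 19.1 with Nestin-Cre. These genes also have the lowest and highest GC content of the members. Their log2 ratios with Nestin-Cre were 0.76 and -1.56 by library total, and 0.82 and -0.64 after adjustment for GC content and length. The ratio of Kcnj10 to Aqp4 counts was 1.02 with Nestin-Cre, inside the control range of 0.960 to 1.14, and 0.759 with Olig2-Cre and 0.901 in Fto Tg, both below it.

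**Figure D2:**
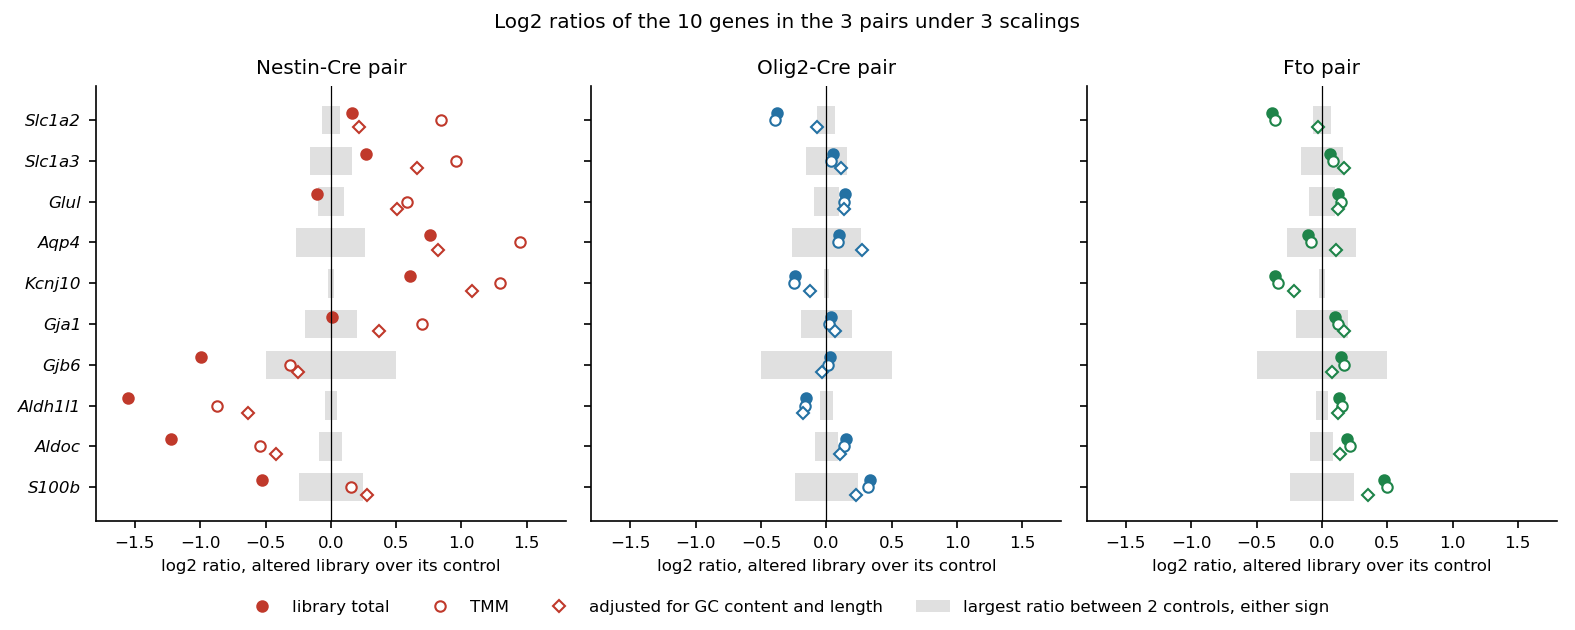
Log2 ratios of the 10 genes in the Nestin-Cre, Olig2-Cre and Fto pairs, the altered library over its control; filled circles are scaled by library total, open circles by TMM, diamonds are adjusted for GC content and length, and grey bars span the largest ratio between any 2 controls in either sign. Aqp4, Kcnj10, Slc1a3 and Slc1a2 lie right of the grey bars and Aldh1l1 and Aldoc left of them under all 3 scalings in the Nestin-Cre pair. S100b and Glul change side there.

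In the Olig2-Cre pair, 1 of the 10 genes was called higher and 1 lower. Over the 17742 genes tested, 4.95% were called higher and 6.91% lower. S100b was the gene called higher (0.33) and Slc1a2 the gene called lower (-0.38). The remaining log2 ratios lay between -0.24 (Kcnj10) and 0.15 (Aldoc), and the median of the 10 genes was 0.04. An edgeR exact test that took its dispersion from the 3 controls (biological coefficient of variation 0.133) called neither gene, and of all genes 0.135% higher and 0.192% lower. With f/f-Nes as the control, Aqp4 (0.36) and Gjb6 (0.53) were called higher as well, where 8.98% of all genes were called higher and 10.9% lower. With WT as the control, Aqp4 (0.27) was called higher as well, where the shares were 8.16% and 9.45%.

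In the Fto pair, S100b (0.47) was called higher, and Slc1a2 (-0.38) and Kcnj10 (-0.36) lower. Over the 18051 genes tested, 6.97% were called higher and 8.51% lower. With f/f-Olig as the control, Aldoc (0.27) was called higher and Aqp4 (-0.28) lower besides these, where 8.89% and 10.3% of all genes were. With f/f-Nes as the control, Gjb6 (0.60) was called higher besides them, where 11.4% of all genes were called higher and 12.7% lower. Slc1a2 and Slc1a3, which carry out the same uptake, again parted: the ratio of their counts was 6.28, 5.61 and 5.36 in the controls, 5.80 with Nestin-Cre, 4.17 with Olig2-Cre and 3.95 in Fto Tg. The edgeR exact test called none of the 10 genes in this pair either, and of all genes 0.127% higher and 0.443% lower. In the Nestin-Cre pair it called Aqp4 and Kcnj10 higher and Aldh1l1, Aldoc and Gjb6 lower, where 8.19% of all genes were called higher and 47.1% lower.

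The same read test between control libraries gave the calls seen without a deletion or transgene. Between f/f-Nes and f/f-Olig it called Aqp4 and Gjb6, with 13.1% of all genes. Between WT and f/f-Nes it called Gjb6 (0.46), with 17.3% of all genes. Between WT and f/f-Olig it called no member, with 7.2% of all genes. These 3 calls among 30 comparisons concerned only Aqp4 and Gjb6, the members with the largest spread over the controls (SD of 0.13 and 0.28 on the log2 scale). Calls and spread come from the same 3 libraries, so their match is no separate result.

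A further description, a fold limit alone without a test of counts, asked which members lay outside all 3 controls by at least 1.2-fold. The Nestin-Cre library had 2 members above (Aqp4 and Kcnj10) and 4 below (Gjb6, Aldh1l1, Aldoc and S100b), where 12.2% of all genes lay above and 58.7% below. The Olig2-Cre library had 1 above (S100b) and 1 below (Slc1a2), with 7.28% and 9.75% of all genes. Fto Tg had 1 above (S100b) and 2 below (Slc1a2 and Kcnj10), with 7.37% and 9.45% of all genes.

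One contrast had more than 1 library an arm, with Nestin-Cre and Olig2-Cre together against f/f-Nes and f/f-Olig. With edgeR's quasi-likelihood F test and Benjamini-Hochberg adjustment, none of the 10 genes and none of the 16921 genes tested passed (0% called, and 143 genes, none of them a member, at an unadjusted p under 0.05). The highest log2 fold changes of members were 0.87 for Aqp4, 0.72 for Kcnj10 and 0.56 for Slc1a3 and the lowest -0.47 for Aldh1l1, with adjusted p of 0.955 to 0.967 over the 10 genes. DESeq2 called 3 genes and no member. Without the Olig2-Cre library the edgeR fit called 8 of the 10 genes and 47.8% of all genes. The Nestin-Cre library then stood alone against f/f-Nes and f/f-Olig and was assumed to vary as they do.

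Members with GC-rich transcripts were lower with Nestin-Cre, as were genes at large. Spearman's rho between log2 ratio and transcript GC content was -0.68 over the 10 genes and -0.42 over all genes tested, given as a description since genes of a library share its composition. Aqp4, with the lowest GC content (41.4%), had the highest ratio and Aldh1l1, with the highest GC content (54.4%), the lowest. Genes within 1 percentage point of GC of Aqp4 had a median log2 ratio of -0.24, and those around Aldh1l1 one of -1.06. After adjustment of the ratios for GC content and length, Aqp4 (0.82), Kcnj10 (1.08), Slc1a3 (0.66), Glul (0.51), Gja1 (0.37) and S100b (0.28) were called higher and Aldh1l1 (-0.64) and Aldoc (-0.42) lower. Gjb6 (-0.25) and Slc1a2 (0.21) were not called. Of all genes, 27.7% were called higher and 27.8% lower after the adjustment.

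In the pairs of Olig2-Cre and Fto Tg, longer members had lower ratios. Spearman's rho between log2 ratio and transcript length was -0.72 with Olig2-Cre and -0.92 in Fto Tg over the 10 genes, against -0.29 and -0.34 over all genes tested. In the Nestin-Cre pair it was 0.60 over the 10 genes and 0.21 over all genes. Between the controls WT and f/f-Olig, rho with GC content was 0.66 over the 10 genes and -0.18 over all genes. Slc1a2 has the longest transcript (11595 bases) and had the lowest ratio in both pairs, and S100b has the shortest (1484 bases) and had the highest. The 328 genes within 0.25 of Slc1a2 in log2 transcript length had median log2 ratios of -0.30 and -0.31 in the respective pairs. After the adjustment, Slc1a2 was no longer called in either pair (-0.07 and -0.03), nor was Kcnj10 in the Fto pair (-0.22). S100b was still called in the Fto pair (0.35) and no longer in the Olig2-Cre pair (0.23), where Aqp4 (0.27) was called. Of all genes, 2.79% were then called higher and 2.89% lower with Olig2-Cre. For Fto Tg these shares were 3.84% and 3.52%.

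**Figure D3:**
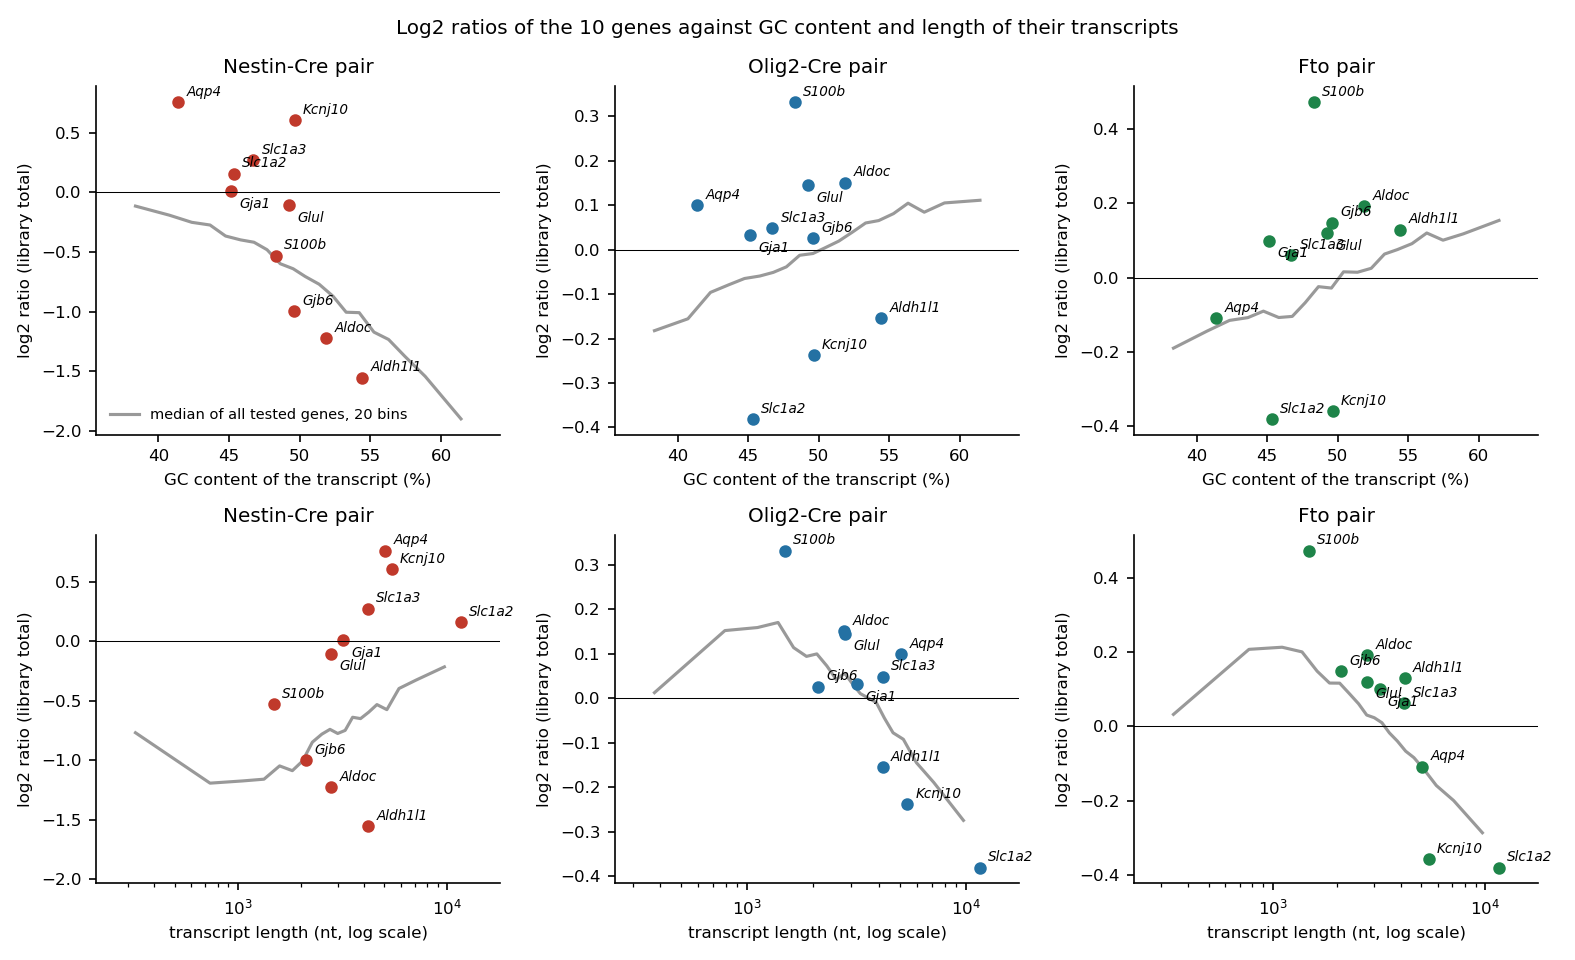
Log2 ratios (library total) of the 10 genes against the GC content (upper row) and length (lower row, log scale) of the longest protein-coding transcript in the 3 pairs; the grey line joins the medians of all tested genes in 20 bins. In the Nestin-Cre pair Aqp4 at 41.4% GC is highest and Aldh1l1 at 54.4% lowest, and in the other pairs S100b at 1484 bases is highest and Slc1a2 at 11595 bases lowest.

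m6A is laid mostly on adenosines within short consensus sequences, of which GGACT, with U for T in the RNA, is a frequent form. The coding strand of the longest transcript was searched, and 9 of the 10 genes held GGACT in the coding sequence, as did 71.4% of 21099 protein-coding genes. Aldh1l1 held 5, Glul and Gjb6 held 3, Slc1a2 and Aqp4 held 2, and Slc1a3, Kcnj10, Gja1 and Aldoc held 1. S100b, with 276 coding bases, held none. Per kilobase of coding sequence the numbers were 3.83 in Gjb6, 2.68 in Glul, 2.06 in Aqp4, 1.85 in Aldh1l1, 1.17 in Slc1a2, 0.918 in Aldoc, 0.88 in Kcnj10, 0.873 in Gja1 and 0.614 in Slc1a3, against a median of 1.03 over all genes. The 3 members called higher in the Nestin-Cre pair held the motif, as did the members called lower other than S100b. The first coding match of 6 members called in a pair is printed, that of Aqp4 not shown here, with up to 20 bases on either side, GGACT in capitals, on GRCm38 and in transcript direction. In Gjb6 the motif begins at the third coding base, so its window starts at the start codon. The window of Slc1a3 crosses from exon 9 to exon 10.
Aldh1l1 (chr6:90564362-90564406, plus strand, exon 7): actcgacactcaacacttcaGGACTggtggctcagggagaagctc
Aldoc (chr11:78325674-78325718, plus strand, exon 7): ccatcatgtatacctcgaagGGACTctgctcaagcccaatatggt
Gjb6 (chr14:57124776-57124802, minus strand, exon 3): atGGACTgggggaccctgcacaccgtc
Kcnj10 (chr1:172369725-172369769, plus strand, exon 2): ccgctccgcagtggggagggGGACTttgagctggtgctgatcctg
Slc1a3 (chr15:8636327-8639087, minus strand, exons 9 and 10): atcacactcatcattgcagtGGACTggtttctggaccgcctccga
Slc1a2 (chr2:102755941-102755985, plus strand, exon 7): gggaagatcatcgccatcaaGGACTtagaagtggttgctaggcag
A match describes the sequence alone, and methylation of these sites was not measured in the counts.

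The partners of the 10 genes were then described from lists of their pathways. With Nestin-Cre their counts stand beside 11.5% of all genes called higher and 53.4% lower by library total, and 28.4% and 29.8% with TMM. Among 14 other genes of water and potassium handling, 3 were called higher and 7 lower with Nestin-Cre (7 and 6 with TMM), with a median log2 ratio of -0.55. The share of the list called lower by library total (50%) was near that of all genes, and with TMM 50% were called higher. The rises were led by Atp1b2 (1.18), a glial subunit of the sodium pump, and Kcnj16 (0.96), a channel subunit that assembles with Kir4.1. Mlc1 (-2.41), an end-foot membrane protein, was among the falls. These 3 partners kept their direction with TMM and after the GC and length adjustment. In the Fto pair, 2 of the 14 genes were called higher and 4 lower, where 6.97% and 8.51% of all genes were. Among them, Mlc1 (0.36) was higher and Kcnj16 (-0.61) and Dmd (-0.51), the gene of dystrophin, lower. After the adjustment these ratios were 0.31, -0.50 and -0.10. Of the 14 genes, 2 were then called higher and 1 lower, where 3.84% and 3.52% of all genes were.

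Of 16 other genes of the glutamate and glutamine cycle, 1 was called higher and 14 lower with Nestin-Cre (2 and 8 with TMM), with a median of -0.996. Those called lower were 87.5% of the list by library total and 50% with TMM. Slc38a3, an astrocyte transporter that exports glutamine, was called lower, with 65.0 and 19.8 CPM in control and Nestin-Cre (log2 ratio -1.03 with TMM), as was Slc17a7, the vesicular glutamate transporter of many cortical and hippocampal neurons, with 1407 and 373 CPM (-1.23 with TMM). Slc1a1, the neuronal glutamate transporter, rose from 102 to 187 CPM (1.55 with TMM). In the Olig2-Cre pair 1 gene was called higher and 2 lower, where 4.95% and 6.91% of all genes were. In the Fto pair 1 was called higher and 4 lower, where 6.97% and 8.51% of all genes were. The cystine and glutamate exchanger Slc7a11 was called lower in both, by log2 ratios of -0.87 and -0.38, and after adjustment for GC content and length these were -0.55 and -0.01. Between controls, 1 of the 16 genes was called higher and 1 lower in f/f-Nes against f/f-Olig. In WT, 2 were higher and 3 lower against f/f-Nes, and 0 higher and 1 lower against f/f-Olig.

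Of 9 gap junction partners, 1 was called higher and 6 lower with Nestin-Cre (2 and 4 with TMM), so that 66.7% and 44.4% of the list were lower. Gjb1 (-2.04, and -1.36 with TMM), a connexin of oligodendrocytes, was among the falls, and Tjp1 (0.90, and 1.58 with TMM), a scaffold protein of cell junctions, was the rise. Markers of mature oligodendrocytes were also lower in that library, with 4 of 5 called lower and a summed value of 243 CPM against 790.2 to 928 CPM in the controls (362 against 730.4 to 852 with TMM). The fifth, Ermn (0.39, and 1.08 with TMM), was called higher. None of them was at 0 in any library, and their part in the fall of Gjb1 was not tested. With Olig2-Cre, Gjc3 (-0.71), another connexin of oligodendrocytes, and Tjp1 (-0.42) were lower, and the markers summed to 639.6 CPM.

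Among 17 further genes of astrocyte metabolism, 2 were called higher and 13 lower with Nestin-Cre (5 and 8 with TMM), so that 76.5% and 47.1% of the list were lower. Ldhb (0.81, and 1.496 with TMM), a subunit of lactate dehydrogenase, and Aldh1l2 (0.51, and 1.19 with TMM), the mitochondrial counterpart of Aldh1l1, were the rises. Acsbg1 (-1.78, and -1.09 with TMM), a fatty acid-activating enzyme, and Slc2a1 (-1.62, and -0.94 with TMM), the glucose transporter of the blood-brain barrier and of astrocytes, led the falls. Slc2a1 was called higher in the other pairs (0.49 with Olig2-Cre and 0.33 in Fto Tg). The 17 genes gave 3 higher and 1 lower in the Olig2-Cre pair, and 3 higher and none lower in the Fto pair. After adjustment for GC content and length, 1 was called higher with Olig2-Cre and 2 in the Fto pair, with 0 lower in each. Between controls, 1 was called higher and 4 lower in f/f-Nes against f/f-Olig. In WT, 1 was higher and 1 lower against f/f-Nes, and 0 higher and 2 lower against f/f-Olig.

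A wider list of 35 astrocyte genes had 4 called higher and 21 lower with Nestin-Cre, or 11.4% and 60.0%, near the shares of all genes. With TMM 16 were called higher and 13 lower, or 45.7% and 37.1%, so that the balance between the directions depended on the scaling. Sparcl1 (1.37), a secreted protein that promotes synapse formation, and Nfia (0.70), a transcription factor of astrocyte formation, led the rises. Gpr37l1 (-2.93), an orphan receptor, and Slc7a10 (-2.49), an amino acid transporter, led the falls, and all 4 kept their direction with TMM and after the adjustment. With Olig2-Cre 7 were called higher and 2 lower, where 4.95% and 6.91% of all genes were. In the Fto pair 9 were called higher and 2 lower, where 6.97% and 8.51% of all genes were. After the adjustment these counts were 4 and 0 with Olig2-Cre, and 5 and 0 in the Fto pair. Between controls, 1 was called higher and 9 lower in f/f-Nes against f/f-Olig. In WT, 7 were higher and 2 lower against f/f-Nes, and 1 higher and 3 lower against f/f-Olig.

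**Figure D4:**
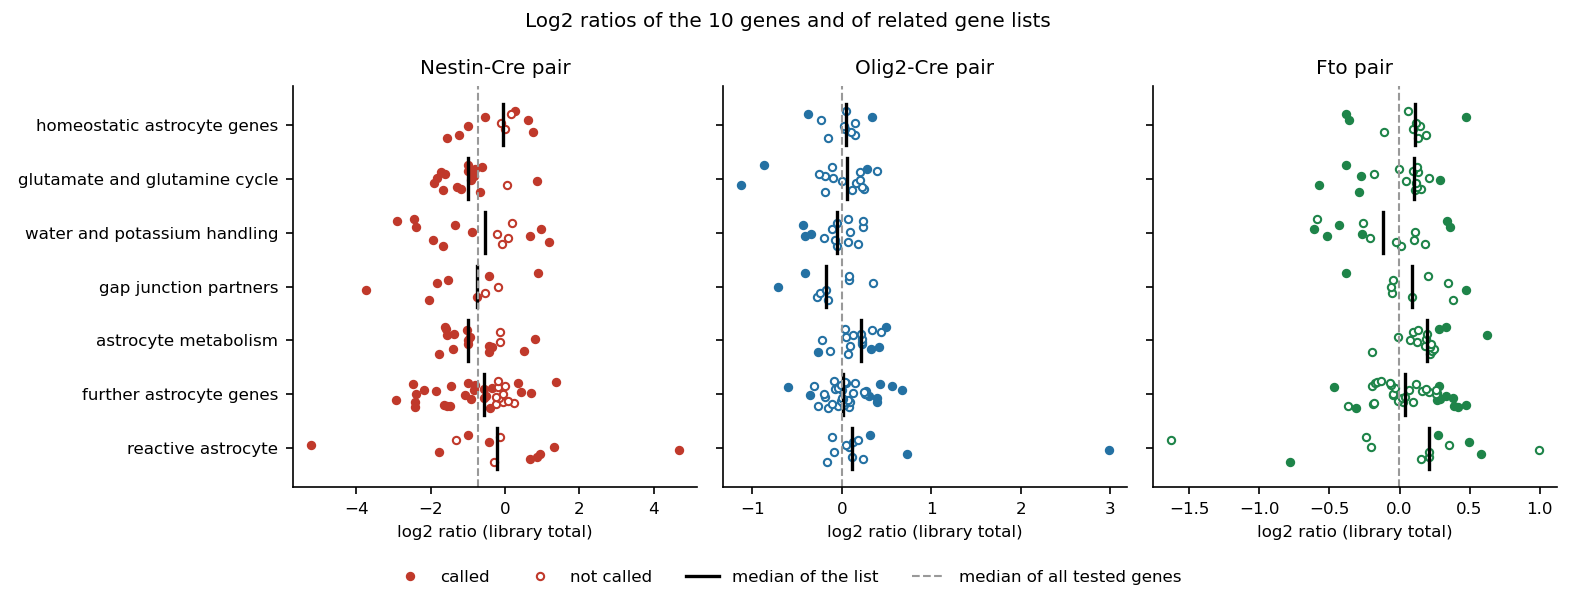
Log2 ratios (library total) of the 10 homeostatic astrocyte genes and of 6 related lists in the 3 pairs, with a different horizontal scale in each; filled points were called, open points were not, the black bar is the median of a list and the dashed line the median of all tested genes. In the Nestin-Cre pair every list spreads to both sides of 0, and the 10 genes have a median of -0.05 beside -0.72 for all genes.

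Markers of other cells were read beside these results. In the Nestin-Cre library, 3 of 3 progenitor markers of oligodendrocytes and 4 of 4 ependymal and choroid plexus markers were called lower, and 3 of 5 neuronal markers higher and 1 lower. With TMM, 2 of 3 and 3 of 4 were called lower, and 4 of 5 neuronal markers higher and 1 lower. Of all genes, 53.4% were called lower and 11.5% higher by library total, and 29.8% and 28.4% with TMM. The summed values of the progenitor, ependymal and neuronal markers were 93.5, 259 and 5959 CPM, against 180 to 208 CPM, 1610 to 2821 CPM and 4503 to 4779 CPM in the controls. The ependymal and choroid plexus genes also reached 3341 CPM with Olig2-Cre and 686 CPM in Fto Tg, mostly through Ttr. Markers of microglia summed to 142 CPM with Nestin-Cre and 177 to 208 CPM in the controls, those of endothelium to 89.4 CPM and 97.4 to 113 CPM, those of meningeal fibroblasts to 56.9 CPM and 65.5 to 85.6 CPM, and those of neural stem cells to 56.6 CPM and 93.5 to 108 CPM. With TMM the order changed, since microglia markers summed to 211 with Nestin-Cre against 164 to 192 in the controls, endothelial markers to 133 against 89.4 to 105, fibroblast markers to 84.7 against 60.7 to 78.6 and stem cell markers to 84.2 against 86.6 to 99.1. The progenitor, ependymal and neuronal sums with TMM were 139, 386 and 8870 against 166 to 193, 1478 to 2612 and 4170 to 4387. No marker of these lists was at 0 in any library, and the part of cell composition in the results was not tested.

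For each member, the gene with the most similar pattern over the 6 libraries was sought among 10015 genes, by the root mean square distance of log2 values centred on each gene's mean. The nearest genes were Zc3h12b for Slc1a2 (distance 0.01), Fam222b for Slc1a3 (0.02), Parn for Glul (0.03), Taf1d for Aqp4 (0.05) and Fgd4 for Kcnj10 (0.03). For the remaining members they were Scn3b for Gja1 (0.03), Tcea1 for Gjb6 (0.04), C87436 for Aldh1l1 (0.03), Rab24 for Aldoc (0.03) and Anapc16 for S100b (0.07). No member was nearest to another member. The closest member of the list stood between the 291st place (Slc1a3, for Gja1) and the 1365th place (Aldoc, for S100b) in the ranking. Aldh1l1 and Aldoc were closest to each other among the members (0.14), as were Slc1a3 and Gja1 (0.11) and Slc1a2 and Kcnj10 (0.15). These distances rest on 6 libraries and are descriptive.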

How the data were processed

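The authors trimmed reads with Cutadapt and Trimmomatic, aligned them to mm10 with TopHat2 (version 2.0.9, per the labels), kept unique reads and counted them per Ensembl gene with HTSeq (version 0.6, per the labels; union mode, no strand). The deposited files hold these whole-number counts, 1 library each and not normalized. Reads shared with near-identical copies were thereby lost. The labels allowed single or paired reads.

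Counts were scaled by library total (37315 genes, 18616540 to 35482589 counts). DEGseq, the study's tool, was not installed, so its MARS formulas were programmed in R 4.3.3 (0.5 added to each count, at least 10 counts over the pair, Benjamini-Hochberg over all genes, false discovery rate 0.001, fold change 1.2) and tested on simulated data. edgeR 4.0.16 (TMM, filterByExpr, quasi-likelihood F test, false discovery rate 0.05, and the exact test) and DESeq2 1.42.0 were used where named. Ratios were adjusted with a spline (5 degrees of freedom) on GC content and log2 length. Annotation and sequences came from GENCODE M21 (GRCm38), and primers from the study's primer list. Python 3.11.15 made summaries and figures.

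The 10 genes and all lists were chosen with earlier results of these data known. Text names every member, up to 2 called genes per list, pair and direction with at least 10 CPM in the pair, the nearest gene of each member, and Prrc2a and Fto. Some genes that this rule selects are not reported here. Intervals (Wilson, 95%) cover counting error only. Alternatives were other scalings, controls, filters and tests.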

Additional observations from a re-analysis of the deposited data

Results flagged for a closer look

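S100b moved in opposite directions with the 2 Cre drivers. Its log2 ratio by library total was -0.53 in the Nestin-Cre pair and 0.33 in the Olig2-Cre pair, each from 1 library against 1, and the difference between the pairs was not tested. With TMM the values were 0.16 and 0.32.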

How the results depend on the processing

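In the Nestin-Cre pair, members called higher were 6 instead of 3 with TMM, DESeq2 size factors or the adjustment for GC content and length, and 5 with mitochondrial genes left out of the total. Members called lower were 2 instead of 4 after the adjustment. The median log2 ratio of the 10 genes, -0.05 by library total, was 0.64 with TMM, 0.67 with DESeq2 size factors, 0.27 without mitochondrial genes, 0.32 after the adjustment, and -0.074 and -0.022 with f/f-Olig and WT as controls. Glul reversed to 0.58, 0.61, 0.21 and 0.51 under those 4 scalings, S100b to 0.16, 0.19 and 0.28 with TMM, DESeq2 size factors and the adjustment, and Gja1 to -0.14 with f/f-Olig. In the Olig2-Cre pair, 2 members were called by library total, 1 after the adjustment (0 lower), 0 in the exact test (0 higher, 0 lower) and 4 with f/f-Nes as control, of which 3 were higher; with WT as control 2 were higher. The median was 0.067 with DESeq2 size factors, 0.083 after the adjustment and 0.12 with f/f-Nes, and Gjb6 reversed to -0.035 after the adjustment. In the Fto pair, 3 members were called by library total, 1 after the adjustment (0 lower), 0 in the exact test (0 higher, 0 lower) and 5 with f/f-Olig as control; 2 were higher with either f/f control. The median was 0.14 with DESeq2 size factors, Aqp4 reversed to 0.11 after the adjustment and Gja1 to -0.099 with f/f-Olig. Between controls the exact test, added after seeing the data, called 0 members instead of 3. In the comparison of both Cre with both f/f libraries, leaving out 1 library gave 0 to 8 members called, and the replicate block on the experiment gave 0 members and 2 genes; numbers in the labels did not pair the libraries. The causes of these changes were not tested. Of the single members' ratios under the alternatives, 230 kept their direction and call, 15 lost the call, 14 gained it and 11 reversed. Settings that changed only the filter or the test left each ratio as it was, so no reversal was possible under them.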

Other observations

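Genes of the reactive astrocyte state were read beside the homeostatic genes. Of 12 listed genes, 5 were called higher and 4 lower with Nestin-Cre (5 and 3 with TMM), 3 higher and none lower with Olig2-Cre, and 3 higher and 1 lower in the Fto pair. Of all genes, 11.5% were called higher and 53.4% lower with Nestin-Cre (28.4% and 29.8% with TMM). These shares were 4.95% and 6.91% with Olig2-Cre, and 6.97% and 8.51% in the Fto pair. Between controls, 1 of the 12 was called higher and 6 lower in f/f-Nes against f/f-Olig. In WT, 1 was higher and 0 lower against f/f-Nes, and 1 higher and 1 lower against f/f-Olig. Gfap, already high in the controls at 330.1 ± 30.7 CPM (SD, n = 3), was called higher in the 3 pairs, with log2 ratios of 0.93 (1.61 with TMM), 0.73 and 0.58. Lcn2, a secreted protein of the acute phase response, lay below the level required for naming and was chosen after its values were seen. It had 13, 14 and 24 counts in the controls, 339 counts with Nestin-Cre, 73 counts with Olig2-Cre and 67 counts in Fto Tg, or 9.75, 3.92 and 1.92 CPM in the altered libraries against 0.366 to 0.952 CPM. The members did not share one direction beside it. Osmr, a cytokine receptor subunit, had 12.1 CPM with Nestin-Cre and 4.88 to 7.23 CPM in the controls, whereas S100a6, a calcium-binding relative of S100b, had 0.316 CPM with Nestin-Cre and 12.2 to 13.6 CPM in the controls. Vim, an intermediate filament gene, was called lower with Nestin-Cre at a log2 ratio of -0.99, which was -0.30 with TMM and 0.06 after adjustment for GC content and length.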
